A study of Mus musculus with 9 samples.

Results

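Olfm4, Gkn3, Igfbp4, Fstl1 and Slc14a1 are 5 intestinal stem cell genes that stood higher in small intestine libraries than in colon libraries of the same experiment. They were picked by name from the count table for that difference and make up 5 of its 78239 genes. The difference between the tissues is therefore given for them as a description with no test. The comparison of the colon fractions played no part in the choice and is tested.

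The RNA-seq libraries were made from polyadenylated RNA of epithelial cells that were taken at 8 weeks of age from Lgr5-2A-eGFP mice, whose GFP reports the stem cell gene Lgr5. Chelation freed the crypts, TrypLE split them into single cells and the cells were sorted on GFP, per the labels' protocols, with at least 50000 cells from small intestine and 30000 from colon in each fraction. The 9 libraries form 3 groups of 3, namely small intestine, colon GFP-high and colon GFP-negative. All groups carry the reporter and share the age. The labels name no GFP fraction for small intestine, so tissue and sorted fraction cannot be told apart in the comparison of small intestine with colon. They do not say whether the libraries came from separate animals, and a p-value here measures only the spread between these samples, which may be technical.

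Intestinal stem cells lie at the base of the crypts and divide throughout life to replace the epithelium. In the small intestine they lie between Paneth cells, which secrete defensins and lysozyme and supply growth signals, whereas the mouse colon has no typical Paneth cells. Olfm4, Igfbp4 and Lgr5 are widely used markers of small intestinal stem cells. Olfm4, Gkn3, Igfbp4 and Fstl1 encode secreted proteins, and Slc14a1 encodes a urea channel of the cell membrane.

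The libraries held 86621513 to 106673547 counts, so that 3 counts made 0.0232 to 0.0411 CPM, the count per 1e+06 counts of the library, on library sizes scaled by TMM, a factor that corrects for composition. The tissue labels matched the regional markers, although Fabp2, a gene of enterocytes, overlapped between the tissues. It was 42.3 to 771 CPM in small intestine and 35.6 to 114 CPM in colon. Hoxb13, a homeobox gene of the distal colon, was 0.279 to 0.332 CPM in small intestine and 188 to 548 CPM in colon. Gata4, a transcription factor of the proximal intestine, was 96.1 to 134 CPM in small intestine and 0.0191 to 1.16 CPM in colon. The summed CPM of 6 epithelial markers was 10419 to 22620 over all libraries. Lgr5, the gene behind the sort, was 57.9, 120 and 209 CPM in small intestine replicates 1 to 3, 43.5, 0.958 and 73.0 CPM in the libraries labelled colon GFP-high and 2.84, 62.1 and 6.28 CPM in those labelled colon GFP-negative. Both replicate 2 libraries of the colon thus went against their labels, and each direction between the colon fractions is limited by that.

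Olfm4 encodes olfactomedin 4, a glycoprotein that crypt cells secrete into mucus. The gene (ENSMUSG00000022026.8) lies on chromosome 14 from 79984081 to 80023139 on the plus strand in GENCODE M21 on GRCm38, and its principal transcript there has 5 exons. Gkn3 encodes gastrokine 3, a secreted protein of the stomach mucosa in mice, and the gene (ENSMUSG00000030048.6) lies on chromosome 6 from 87383256 to 87388935 on the minus strand, with 6 exons. Igfbp4 encodes a secreted protein that binds insulin-like growth factors and limits their access to receptors. That gene (ENSMUSG00000017493.13) lies on chromosome 11 from 99041244 to 99054392 on the plus strand, with 4 exons. Fstl1 encodes a secreted glycoprotein related to follistatin and SPARC, known mainly from mesenchymal cells. It (ENSMUSG00000022816.12) lies on chromosome 16 from 37776873 to 37836514 on the plus strand, with 11 exons. Olfm4 overlaps the lincRNA gene Gm6999, which reached 0.790 CPM at most, and the other genes overlap no annotated gene.

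The promoters of the 3 genes with the highest levels are shown because they differ in base composition and motifs. Each is 300 bases of RefSeq on GRCm38.p6, from 250 bases before the start of the gene to 50 after it, written along the gene's strand, and capitals mark matches to the motifs named below. The windows are chr14:80000052-80000351 on the plus strand for Olfm4, whose RefSeq start lies inside the GENCODE gene, chr6:87388886-87389185 on the minus strand for Gkn3 and chr11:99040994-99041293 on the plus strand for Igfbp4.
Olfm4: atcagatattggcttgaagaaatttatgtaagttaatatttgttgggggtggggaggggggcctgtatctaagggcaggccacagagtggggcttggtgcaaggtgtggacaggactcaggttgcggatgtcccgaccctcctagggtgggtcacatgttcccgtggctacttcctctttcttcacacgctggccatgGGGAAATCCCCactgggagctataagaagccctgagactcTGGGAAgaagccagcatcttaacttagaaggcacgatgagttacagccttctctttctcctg
Gkn3: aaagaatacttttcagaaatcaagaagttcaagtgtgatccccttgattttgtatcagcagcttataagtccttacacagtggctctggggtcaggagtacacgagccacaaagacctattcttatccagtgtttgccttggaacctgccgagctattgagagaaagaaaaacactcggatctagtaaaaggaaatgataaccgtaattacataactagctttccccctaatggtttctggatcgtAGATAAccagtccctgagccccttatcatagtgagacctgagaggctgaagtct
Igfbp4: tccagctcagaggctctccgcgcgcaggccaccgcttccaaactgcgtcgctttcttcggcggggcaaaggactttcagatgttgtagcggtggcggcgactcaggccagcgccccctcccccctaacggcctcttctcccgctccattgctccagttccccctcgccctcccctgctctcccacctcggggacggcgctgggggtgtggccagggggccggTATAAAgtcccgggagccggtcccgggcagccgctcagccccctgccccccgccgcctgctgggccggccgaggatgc

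The Olfm4 and Gkn3 promoters held 5 CG dinucleotides each, at 52.3% and 42.7% GC, against a median of 7 and 52.7% over 32851 mouse promoters. Those promoters leave out chromosome 18, and so Slc14a1. The Igfbp4 promoter held 27, at 71.3% GC, and the Fstl1 promoter 21, at 66.7% GC. Of all promoters 38% held fewer than the 5 of Olfm4 and Gkn3, 84.5% fewer than Igfbp4 and 75.2% fewer than Fstl1. A total of 7 motifs were searched on both strands. TGGGAA, a core letter run of RBPJ sites, stood once in the Olfm4 promoter, at position -12 from the start, and in 25.6% of all promoters. The Olfm4 promoter also held overlapping matches to the NF-kB motif, the first at position -52, as 8.46% of promoters did. AGATAA, bound by GATA factors, began at position -4 of Gkn3 and occurs in 11.2% of promoters. TATAAA, the TATA box, began at position -28 of Igfbp4 and occurs in 13.6%. The other letter runs searched, with no match in the 4 windows, were CTTTGA for TCF/LEF (16% of promoters), TTTATNG for CDX (10.9%) and CAGCTG for E-boxes (16.3%). A match is a run of letters and not evidence of binding.

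**Figure D1:**
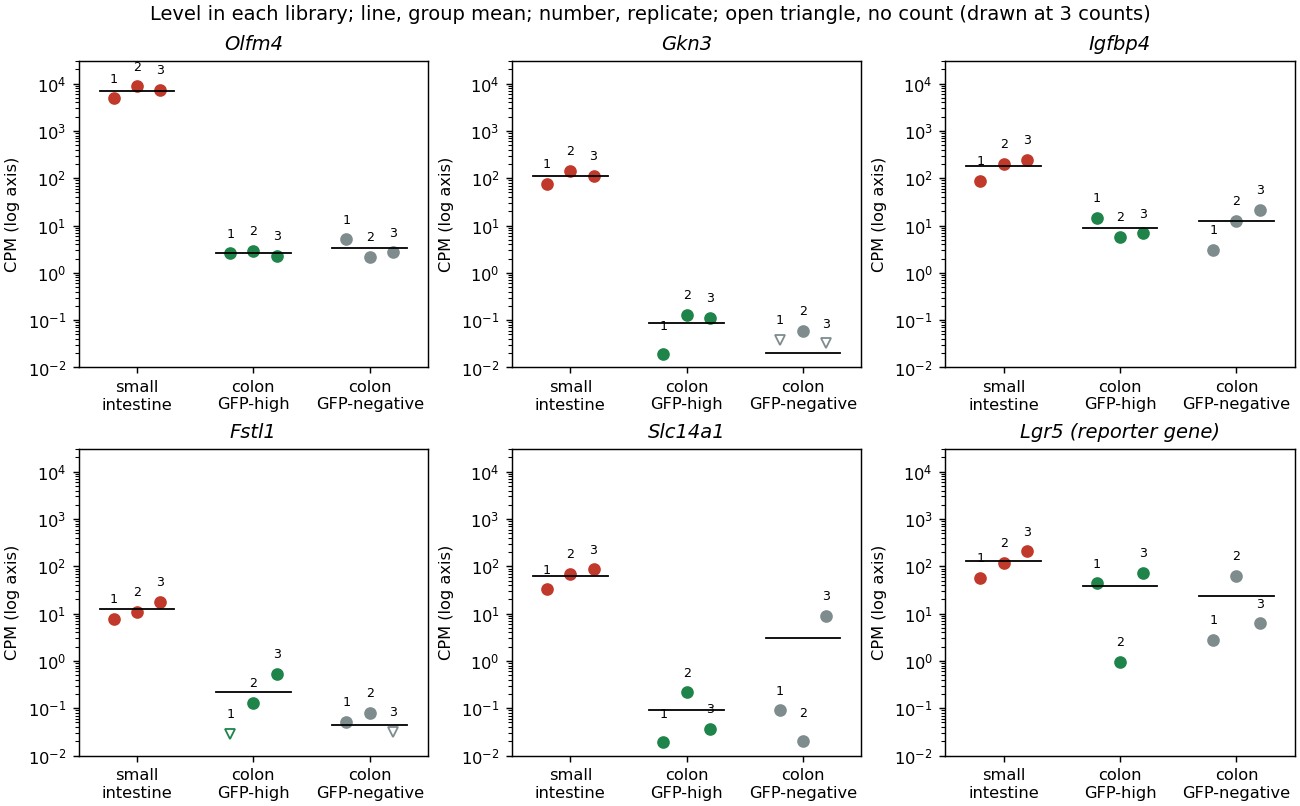
Level of each gene in CPM (log axis) in the 9 libraries, with Lgr5 for comparison; points are libraries numbered by replicate, lines are group means, and open triangles are libraries with no count, drawn at the CPM of 3 counts. Each of the 5 genes lay higher in all 3 small intestine libraries than in any colon library, whereas Lgr5 overlapped between the tissues.

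Olfm4 was among the most abundant transcripts of the small intestine libraries and stood at a few CPM in colon. It stood at 4909, 8852 and 7396 CPM in small intestine, against 2.59, 2.94 and 2.29 CPM in the libraries labelled colon GFP-high and 5.15, 2.21 and 2.70 CPM in those labelled colon GFP-negative. The lowest small intestine library was 954-fold above the highest colon library, and the means were 7052 ± 1994 CPM (SD, n = 3) in small intestine and 2.98 ± 1.09 CPM (SD, n = 6) in colon, a ratio of 2367. Olfm4 alone took 0.395%, 0.912% and 0.895% of all counts in small intestine replicates 1 to 3. By RPKM, which is CPM per kilobase of the deposited gene length, it ranked 36, 8 and 10 among the genes of these libraries and 8844 to 11838 in colon. The 222 to 397 counts per colon library make its low colon level countable. The part of RNA from other cells or libraries in that level was not tested. In bulk samples fewer cells of a type and less RNA per cell cannot be told apart, for Olfm4 and for the other genes.

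Gkn3 had the next highest level per length in small intestine and was almost undetected in colon. Its values were 75.4, 146 and 114 CPM in small intestine, against 0.0191, 0.131 and 0.112 CPM in the libraries labelled colon GFP-high and 0, 0.0598 and 0 CPM in those labelled colon GFP-negative. The colon values rest on 2, 12, 12, 0, 6 and 0 counts, and in the libraries with none a level of up to 0.0389 or 0.0322 CPM is allowed by 3 counts. The mean of 112 ± 35.2 CPM (SD, n = 3) in small intestine was 2086-fold that of 0.0535 CPM in colon, and the lowest small intestine library was 577-fold above the highest colon library. These counts leave any difference between the colon fractions imprecise.

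Igfbp4, like Olfm4, had a countable level in every colon library, and by mean RPKM it was the highest of the 5 there. It was 89.5, 203 and 244 CPM in small intestine, 14.6, 5.84 and 6.83 CPM in the libraries labelled colon GFP-high and 3.05, 12.6 and 21.4 CPM in those labelled colon GFP-negative. Small intestine did not overlap colon, with the lowest small intestine library 4.17-fold above the highest colon library, and the colon fractions overlapped. The means were 179 ± 80.1 CPM (SD, n = 3) in small intestine and 10.7 ± 6.80 CPM (SD, n = 6) in colon, a ratio of 16.7. Within colon its highest library was 7.04-fold its lowest, a wider spread than the 2.33-fold of Olfm4.

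Fstl1 was the least abundant of the 5 in small intestine. It was 7.80, 10.9 and 18.1 CPM there, 0, 0.131 and 0.540 CPM in the libraries labelled colon GFP-high and 0.0518, 0.0797 and 0 CPM in those labelled colon GFP-negative. The colon values rest on 0, 12, 58, 4, 8 and 0 counts, and colon GFP-high replicate 3 gave 58 of the 82. The mean was 12.2 ± 5.26 CPM (SD, n = 3) in small intestine and 0.134 ± 0.205 CPM (SD, n = 6) in colon, a ratio of 91.5. The summed CPM of 10 stromal markers was 8.28, 2.41 and 3.90 in replicates 1 to 3, highest where Fstl1 was lowest. Dcn, which encodes the matrix protein decorin, was 3.73, 0.0391 and 0 CPM there, and Pdgfra, a fibroblast receptor, was 0 in all 3. Pdgfrb, a receptor of pericytes and fibroblasts, was 1.44, 1.17 and 2.38 CPM, highest where Fstl1 was highest. The part of stromal RNA in the Fstl1 level was not tested.

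Slc14a1 encodes the urea transporter UT-B, known from red blood cells and the endothelium of kidney vessels. The gene (ENSMUSG00000059336.15) lies on chromosome 18 from 78100091 to 78142119 on the minus strand, with 9 exons. Its level was at most 0.218 CPM in 5 colon libraries and higher in the last. It was 32.5, 69.3 and 86.5 CPM in small intestine, 0.0191, 0.218 and 0.0372 CPM in the libraries labelled colon GFP-high and 0.0907, 0.0199 and 9.06 CPM in those labelled colon GFP-negative. Colon GFP-negative replicate 3 held 845 of its 880 colon counts. The mean of 62.8 ± 27.6 CPM (SD, n = 3) in small intestine was 39.9-fold the colon mean of 1.57 ± 3.67 CPM (SD, n = 6), and 816-fold the colon mean without that library. The same library had the highest summed CPM of immune markers, 1302 against 2.83 to 530 in the other 5 colon libraries, led by Lyz2 (540 CPM), Cd79a (476 CPM) and Cd3e (98.7 CPM). C1qa, also on the immune list, was 10.7 CPM there and 63.5 CPM in colon GFP-negative replicate 2. Lyz2 was nearly as high in colon GFP-negative replicate 1, at 474 CPM, where Slc14a1 was 0.0907 CPM. The 5 red blood cell markers of colon GFP-negative replicate 3 summed to 105 CPM, against 0.0897 to 15.4 CPM in the other 5 libraries. Hba-a1, an alpha globin gene, gave 98.1 of that sum. The 10 stromal markers of that library summed to 59.6 CPM, of which Vim gave 55.7, against 4.20 to 18.6 CPM in the others. Only 4 of the 10 had a count there. Acta2 was highest in that library, at 2.35 CPM, as was Pdgfra at 0.0751 CPM. Pdgfrb was lowest there, at 1.52 CPM against 2.40 to 4.54 CPM, and Col1a1, Col1a2, Col3a1, Col6a1, Dcn and Lum were at 0. Their part in the Slc14a1 level of this library was not tested. In small intestine the red blood cell sum was 18.3, 13.4 and 9.51 CPM in replicates 1 to 3, in the reverse order of Slc14a1. The immune sum there was 25.0, 12.5 and 32.2 CPM, highest in replicate 3 as Slc14a1 was, and lowest in replicate 2. The 7 endothelial markers summed to 16.7, 18.3 and 28.3 CPM in small intestine and 4.72 to 15.4 CPM in colon, in the order of Slc14a1 within small intestine. Esam, an adhesion molecule of endothelial cells, was the largest of them in each small intestine library. It was 7.64, 16.2 and 18.3 CPM in replicates 1 to 3, also in the order of Slc14a1. Esam was called higher in small intestine (log2 fold change 1.68 ± 0.44, adjusted p = 0.0473 in edgeR). It was the 1 called of 4 endothelial genes tested, beside 3.74% of all genes tested called higher. Its call, close to the threshold, was not followed with libraries left out. The endothelial genes Plvap, Tek and Pecam1 were lowest in small intestine replicate 2 instead, with Plvap at 7.02, 1.65 and 7.38 CPM in replicates 1 to 3. Pecam1 was 6.14 CPM in colon GFP-negative replicate 3 and at most 1.13 CPM in the other colon libraries. Cdh5, which encodes the defining VE-cadherin, was at 0 in all 9 libraries. The part of the endothelial markers was not tested.

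Compared per length, the order in small intestine was Olfm4 (2381 ± 673 RPKM, SD, n = 3), Gkn3 (130 ± 41.1), Igfbp4 (40.5 ± 18.1), Slc14a1 (15.7 ± 6.90) and Fstl1 (2.49 ± 1.07). The ranges of Igfbp4 and Slc14a1 overlapped, although Igfbp4 was higher in each of the 3 libraries, and no other neighbours in the order overlapped. In colon the order by mean RPKM was Igfbp4 (2.43 ± 1.54, SD, n = 6), Olfm4 (1.01 ± 0.369), Slc14a1 (0.394 ± 0.918), Gkn3 (0.0625 ± 0.0667) and Fstl1 (0.0272 ± 0.0417). Each of these neighbours overlapped within its spread. Without colon GFP-negative replicate 3 the Slc14a1 mean was 0.0193 RPKM, below Gkn3 (0.0751) and Fstl1 (0.0326), and without colon GFP-high replicate 3 the Fstl1 mean was 0.0107 RPKM. Olfm4 thus stood at the head of the 5 in small intestine and below Igfbp4 in the colon mean.

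All 5 genes were lowest in small intestine replicate 1. That held for 33 of 34 other intestinal stem cell genes too, against 33.2% of the 20610 genes tested. In the same library Fabp1, a fatty acid binding protein of mature enterocytes, was 12531 CPM, against 323 and 1688 CPM in replicates 2 and 3. The highest small intestine library exceeded the lowest 1.80-fold for Olfm4, 1.93-fold for Gkn3, 2.31-fold for Fstl1, 2.66-fold for Slc14a1 and 2.73-fold for Igfbp4, and 3.60-fold for Lgr5. Relative to Lgr5, Olfm4 was 84.7, 73.9 and 35.4 times as high in CPM in replicates 1 to 3, and Gkn3 1.30, 1.22 and 0.546 times. Igfbp4 was 1.55, 1.70 and 1.17 times and Slc14a1 0.562, 0.578 and 0.414 times as high as Lgr5. Replicate 3, which had the most Lgr5, had the lowest ratio of each of these to Lgr5, and of Fstl1 too (0.0865, against 0.135 and 0.0907).

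In a single edgeR fit of all 9 libraries the log2 fold changes of small intestine over colon were 11.29 ± 0.80 (SE) for Gkn3, 11.22 ± 0.44 for Olfm4, 6.92 ± 1.21 for Fstl1, 6.90 ± 1.51 for Slc14a1 and 4.08 ± 0.57 for Igfbp4. The fit averages the logs of the 2 colon group means, so its folds differ from the ratios of means above. By size they ranked 19, 24, 158, 163 and 369 of the 20610 genes tested. All 5 passed the filter on low counts with 9 libraries, and only Olfm4 and Igfbp4 passed it within the 6 colon libraries. For all 5, each small intestine library lay above all 6 colon libraries, as did 8.39% of genes tested. The choice of the genes fixes this count, and likewise their calls beside the 8.76% of genes called in either direction. The highest colon library was GFP-negative replicate 3 for Igfbp4 and Slc14a1, 2 of the 5, as for 25.3% of genes tested. The gap was narrowest for Slc14a1, at 3.59-fold between the lowest small intestine and the highest colon library.

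**Figure D2:**
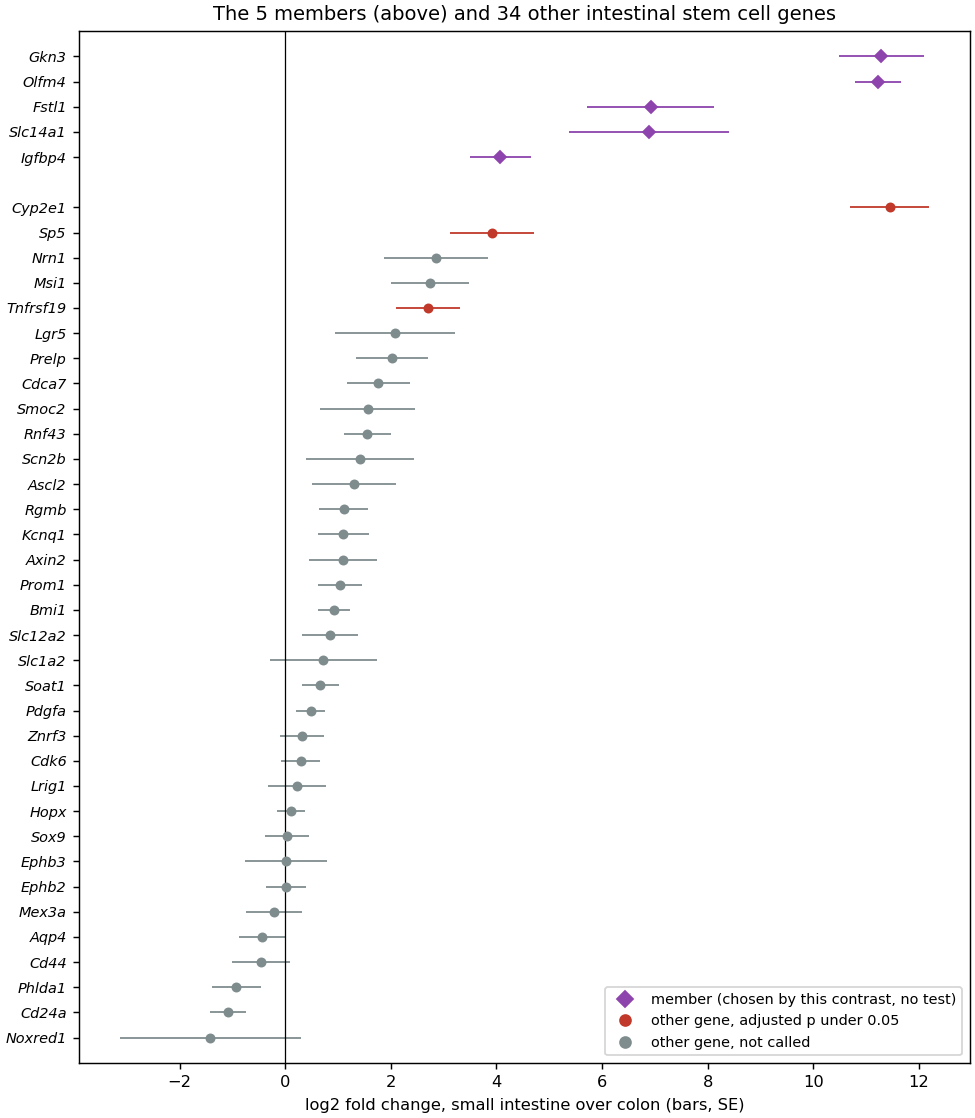
Log2 fold change of small intestine over colon with its SE for the 5 genes (above, chosen by this contrast and not tested) and 34 other intestinal stem cell genes (below), all from the fit of 9 libraries. The 5 genes lie between 4.08 and 11.29, and the other genes lie around a median of 0.89 with Cyp2e1 at 11.45.

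Cyp2e1, Sp5 and Tnfrsf19 were the other intestinal stem cell genes called between the tissues. Of the 34, all were tested, 3 were higher in small intestine and none lower at an adjusted p under 0.05, where 3.74% of all genes tested were higher and 5.02% lower. Their median log2 fold change was 0.89, beside 0.00 over all genes, and 28 of 34 estimates were positive. In 6 of the 34 the small intestine libraries lay above all 6 colon libraries and in 1 below them, beside 8.39% and 9.49% of genes tested. Cyp2e1, a cytochrome P450 enzyme, was 35.3, 37.3 and 82.8 CPM in small intestine and at most 0.0382 CPM in colon (log2 fold change 11.45 ± 0.75, adjusted p = 8.5e-05 in edgeR). Sp5, a Wnt target that encodes a transcription factor, was 15.1, 35.8 and 45.0 CPM in small intestine and 0.375 to 4.68 CPM in colon (3.92 ± 0.79, adjusted p = 0.0177 in edgeR). Tnfrsf19, a Wnt target that encodes the receptor TROY, was 11.4, 21.4 and 34.3 CPM in small intestine and 1.33 to 8.29 CPM in colon (2.71 ± 0.61, adjusted p = 0.0261 in edgeR). None of these overlapped between the tissues. In the 9 fits that left out 1 library each, Cyp2e1 kept its call in 9, Sp5 in 7 and Tnfrsf19 in 4. Sp5 missed the threshold without small intestine replicate 3 (adjusted p = 0.0759) and without colon GFP-high replicate 3 (adjusted p = 0.0524). Tnfrsf19 missed it without small intestine replicate 2 or 3, colon GFP-high replicate 1 or 2 or colon GFP-negative replicate 1, with adjusted p between 0.0521 and 0.138 in edgeR. The count of 3 became 1 without small intestine replicate 3, 6 without colon GFP-negative replicate 2 and 9 without both colon replicate 2 libraries. With the replicate number as a block Sp5 and Tnfrsf19 were not called (adjusted p = 0.0723 and 0.0652 in edgeR). With the tag of the library names as a block none of Cyp2e1, Sp5 and Tnfrsf19 was (adjusted p = 0.109 to 0.392 in edgeR).

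The 4 uncalled stem cell genes with the highest mean CPM had lower folds than these. Cd24a, a surface glycoprotein, averaged 558 ± 244 CPM (SD, n = 3) in small intestine and 1198 ± 329 CPM (SD, n = 6) in colon (adjusted p = 0.0913 in edgeR). Slc12a2, an ion cotransporter of crypt cells, averaged 496 ± 193 CPM in small intestine and 275 ± 175 CPM in colon (adjusted p = 0.361). Smoc2, a matricellular protein related to SPARC, averaged 611 ± 267 CPM in small intestine and 212 ± 196 CPM in colon (adjusted p = 0.322). Cdca7, a cell cycle gene, averaged 562 ± 229 CPM in small intestine and 166 ± 111 CPM in colon (adjusted p = 0.107). Lgr5 itself averaged 129 ± 75.8 CPM in small intestine and 31.4 ± 32.2 CPM in colon (log2 fold change 2.08 ± 1.13, adjusted p = 0.295), and its colon libraries ranged from 0.958 to 73.0 CPM.

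**Figure D3:**
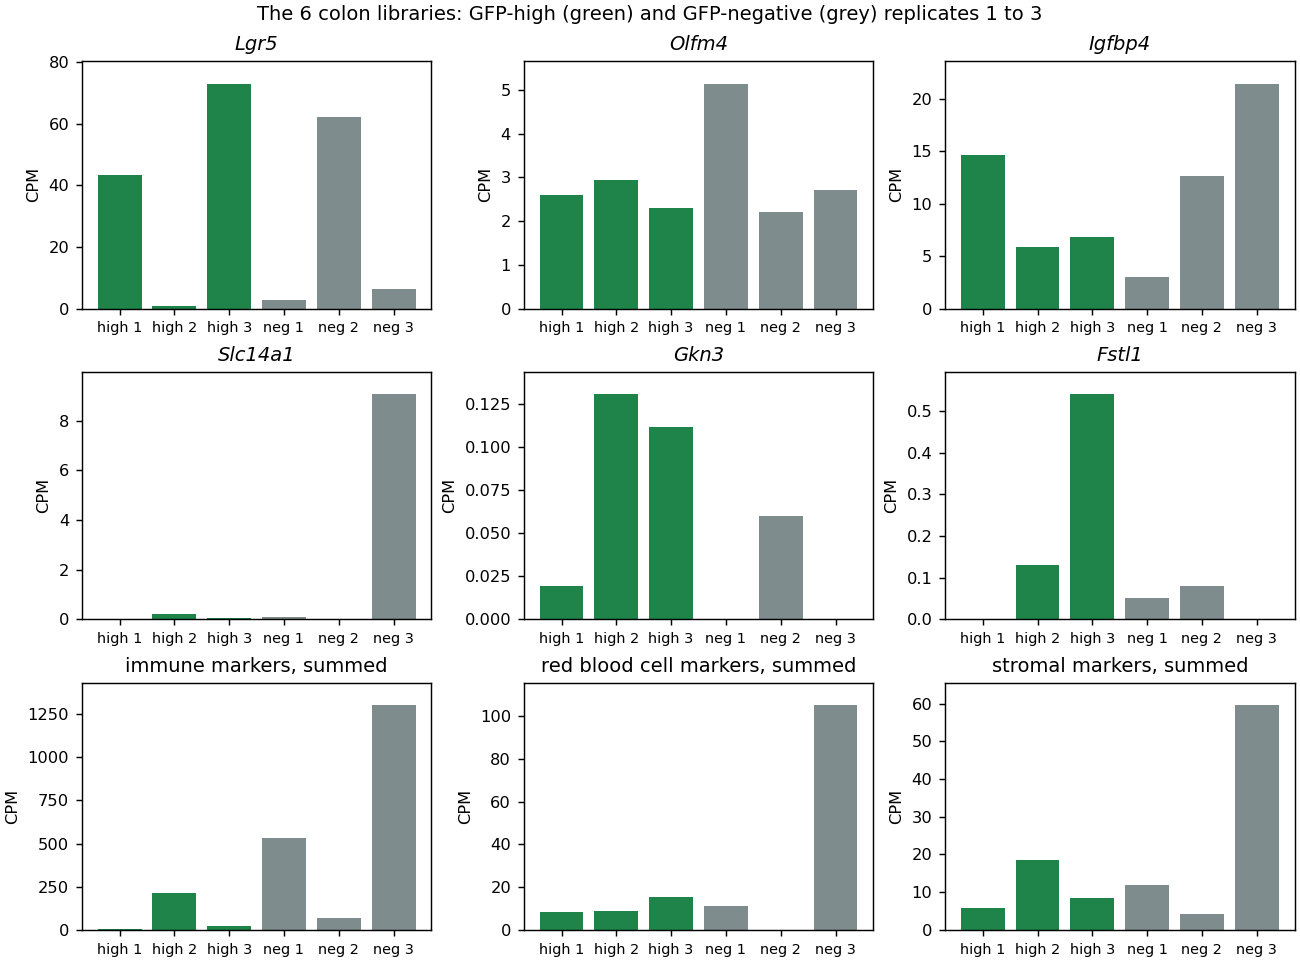
Levels in CPM of Lgr5, the 5 genes and the summed CPM of immune, red blood cell and stromal markers in each of the 6 colon libraries, GFP-high (green) left of GFP-negative (grey), on linear axes that start at 0. Lgr5 is low in the library labelled high 2 and high in that labelled neg 2. Slc14a1 and the 3 marker sums peak in neg 3, where Vim gave 55.7 of the stromal 59.6 CPM.

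The colon fractions were compared to ask whether the genes went with the reporter in the tissue where they were low. No gene of the 5 was called in colon GFP-high over colon GFP-negative, where 0 of 20610 genes (0%) passed an adjusted p under 0.05 in edgeR and 222 had an unadjusted p under 0.05. DESeq2 called 1 gene, lower in GFP-high (0.00485%), and limma-voom 0. For Olfm4 the means were 2.61 ± 0.325 CPM for the GFP-high and 3.35 ± 1.57 CPM for the GFP-negative libraries (SD, n = 3 each), a log2 fold change of -0.36 ± 0.40 (SE, adjusted p = 1 in edgeR). For Igfbp4 they were 9.09 ± 4.80 CPM and, for GFP-negative, 12.4 ± 9.20 CPM (-0.44 ± 0.67, adjusted p = 1 in edgeR). Both differences lay within the spread between replicates, and their signs turned to 0.08 without colon GFP-negative replicate 1 for Olfm4 and to 0.21 without colon GFP-negative replicate 3 for Igfbp4. Gkn3 and Fstl1 passed the filter on low counts only with the small intestine libraries included, and not within the 6 colon libraries. They had log2 fold changes of 1.94 ± 1.04 and 2.32 ± 1.42 on the counts given above (adjusted p = 1 for each in edgeR). Over the fits that left out 1 library each, these lay between 1.36 (without colon GFP-negative replicate 3) and 6.10 (without colon GFP-negative replicate 2) for Gkn3 and between 0.51 (without colon GFP-high replicate 3) and 3.12 (without colon GFP-negative replicate 2) for Fstl1. Without both colon replicate 2 libraries the log2 fold changes were -0.69 ± 0.50 for Olfm4, -0.19 ± 0.87 for Igfbp4, 5.72 ± 1.66 for Gkn3 and 3.39 ± 1.89 for Fstl1, with adjusted p of 0.48 to 0.986 in edgeR.

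Slc14a1 had the largest estimate of the 5 between the fractions, and it rested on 1 library. Slc14a1 too passed the filter on low counts only with the small intestine libraries included. Its log2 fold change of colon GFP-high over colon GFP-negative was -5.08 ± 1.94 (SE, unadjusted p = 0.0285, adjusted p = 1 in edgeR), and 0.72 without colon GFP-negative replicate 3. With the colon replicate 2 libraries left out, an alternative chosen after seeing the data, DESeq2 called it lower in GFP-high (-7.40, adjusted p = 1.12e-05), as it did 2.67% of 21770 genes tested, with 0.547% called higher. In that setting edgeR gave -7.28 (adjusted p = 0.425) and limma-voom -5.09 (adjusted p = 0.70, with 0.00919% of genes called lower). Without these libraries the GFP-negative group is replicates 1 and 3, so the call again includes the library with 9.06 CPM.

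The other stem cell genes gave 30 positive estimates of 34 between the colon fractions, with a median log2 fold change of 0.54 beside -0.02 over all genes and 0 called. The 34 include Lgr5 itself, and estimates from the same few libraries are not separate evidence. The replicate 2 libraries that went against their labels limit each sign. The 5 genes gave 2 positive estimates, those of Gkn3 and Fstl1, neither of which passed the filter on low counts within colon. Igfbp4 followed Lgr5 in part. In both fractions its lowest library was that of the lowest Lgr5, at 5.84 CPM in the library labelled GFP-high replicate 2 and 3.05 CPM in GFP-negative replicate 1. Its highest library in each fraction was not that of the highest Lgr5. Olfm4 ran in the reverse order of Lgr5 among the 3 libraries of each fraction.

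**Figure D4:**
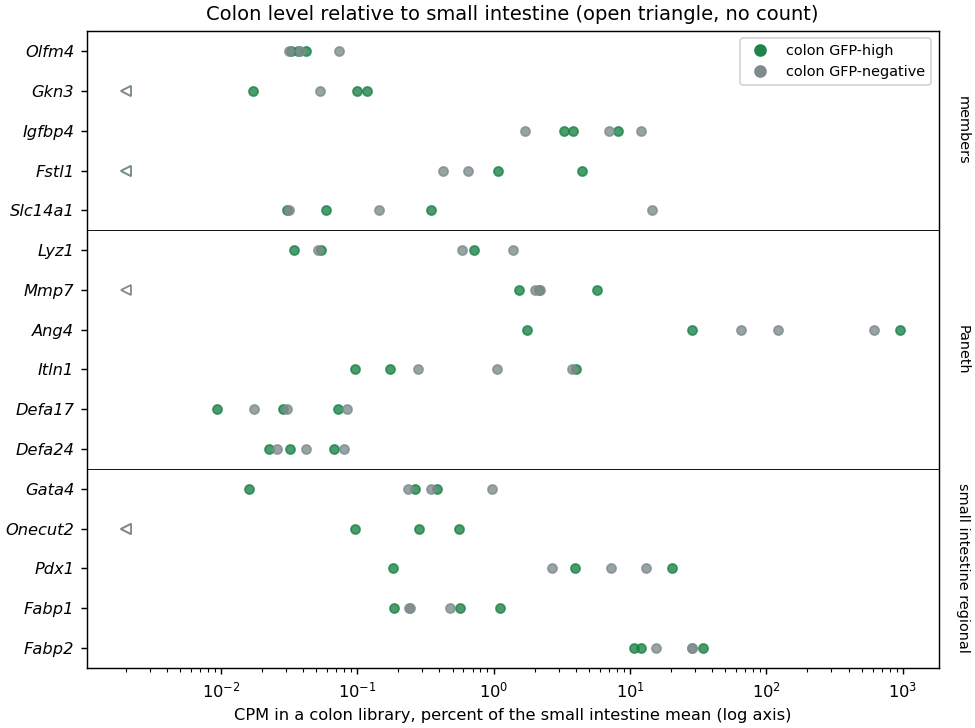
CPM of each colon library as a percent of the small intestine mean (log axis) for the 5 genes, 6 Paneth cell genes and 5 regional genes of the small intestine; points are colon libraries, GFP-high green and GFP-negative grey, and open triangles are libraries with no count. Olfm4 lies at 0.0314% to 0.073%, in the range of the defensins Defa17 and Defa24, and Igfbp4 at 1.7% to 12%.

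Set against the level in small intestine, the colon libraries held very unlike shares of the 5 genes. The colon mean was 0.0422% of the small intestine mean for Olfm4 (0.0314% to 0.073% over the 6 libraries), 0.0479% for Gkn3, 1.09% for Fstl1, 2.51% for Slc14a1 and 6% for Igfbp4 (1.7% to 12%). For Fstl1 and Slc14a1 the mean rested on 1 library. Their medians were 0.538% and 0.102%, Fstl1 was at 4.41% in colon GFP-high replicate 3, and Slc14a1 was at 14.4% in colon GFP-negative replicate 3 and at 0.0304% to 0.347% in the other colon libraries. Genes of Paneth cells and of the small intestinal region spanned a wider range. Defa24 and Defa17, which encode alpha-defensins of Paneth cells, had colon means of 0.045% and 0.0402% of their small intestine means. Those of Gata4, Onecut2 and Pdx1, transcription factors of the proximal intestine, were 0.37%, 0.156% and 7.88%, and that of Fabp2, a fatty acid binding protein of enterocytes, was 21.6% (10.7% to 34.4%). Colon GFP-negative replicate 1 was the highest colon library for Olfm4, Defa24 and Defa17 alike, at 0.073%, 0.0796% and 0.084%. The part of RNA from other cells or libraries in these low levels was not tested. Ang4, an angiogenin of Paneth and goblet cells, ran the other way, with a colon mean of 298% of its small intestine mean. The summed CPM of the 6 Paneth genes was 23798, 25458 and 15977 in small intestine and 28.5 to 5099 in colon, and its part in the small intestine levels of the 5 genes was not tested.

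**Figure D5:**
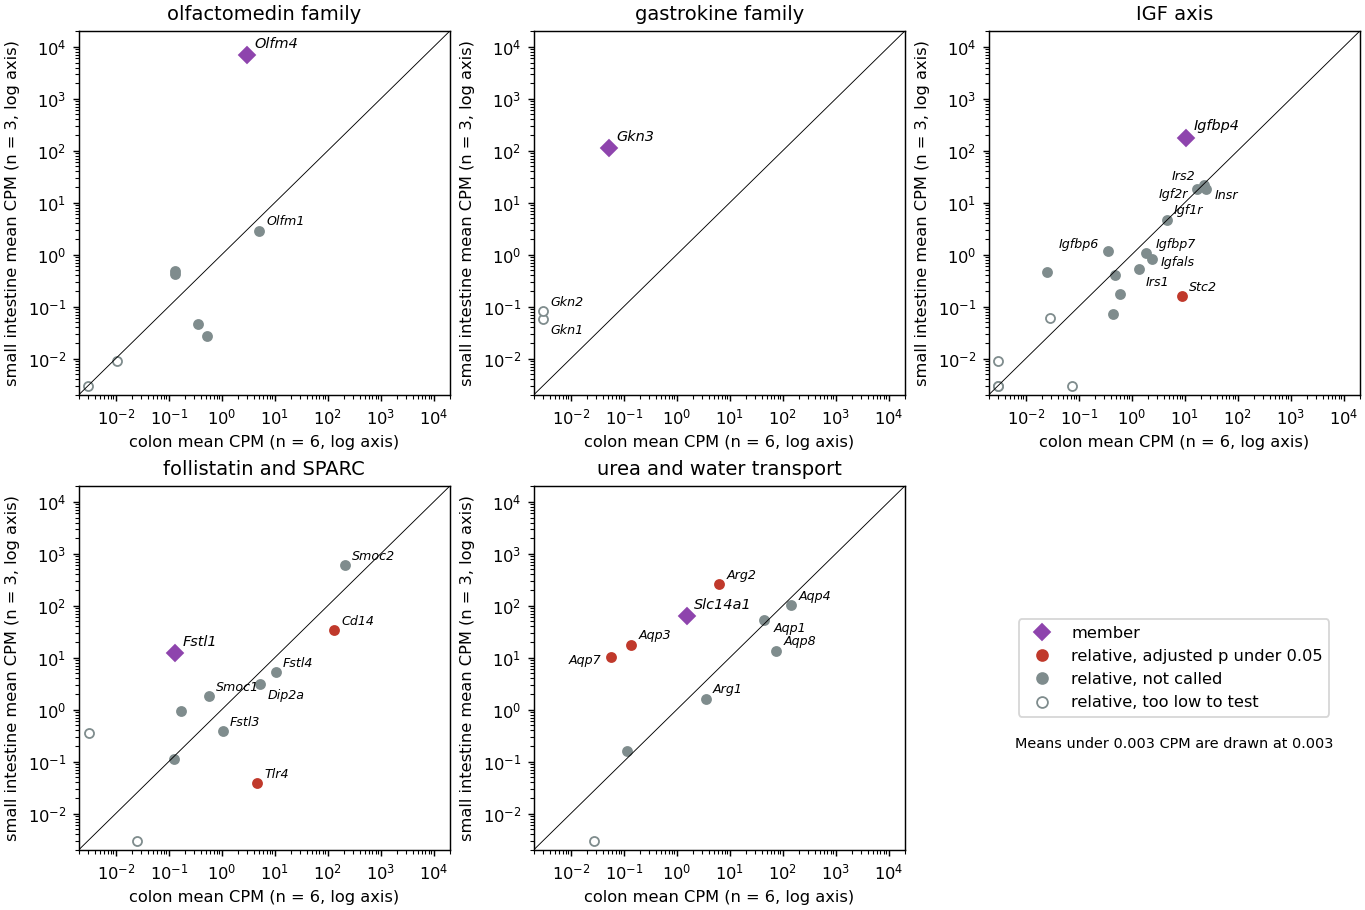
Mean CPM in small intestine (vertical) against mean CPM in colon (horizontal), both on log axes, for each of the 5 genes (purple diamonds) and the genes of its family or pathway; the line marks equal levels. The 5 genes lie far above the line, and the called relatives lie above it for urea and water transport and below it for the IGF axis and the follistatin and SPARC list.

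Of 47 relatives of the 5 genes 35 were tested, and 3 were called higher and 3 lower in small intestine, beside 3.74% and 5.02% of all genes tested. Of 7 other olfactomedin genes 5 were tested and none was called. Olfm1, the most abundant of them, was 2.81, 2.69 and 3.21 CPM in small intestine and 1.15 to 12.9 CPM in colon, so the tissues overlapped. Gkn1 and Gkn2, gastrokines of the stomach, were too low to test. Gkn1 was 0, 0 and 0.170 CPM and Gkn2 0, 0.0293 and 0.217 CPM in small intestine, and both were at 0 in all 6 colon libraries. Gkn3 was thus the single gastrokine gene that reached a level above these traces.

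Of 18 genes of the insulin-like growth factor axis 13 were tested, none was higher and 1 was lower in small intestine. Stc2, a stanniocalcin that inhibits the protease PAPP-A and so the cleavage of IGFBP4, was 0.0548, 0.410 and 0.0155 CPM in small intestine and 4.99 to 14.6 CPM in colon (log2 fold change -5.78 ± 1.07, adjusted p = 0.0116 in edgeR), with no overlap and -8.02 without small intestine replicate 2. Pappa, which encodes that protease, was at 0 in small intestine and at most 0.205 CPM in colon. The receptor Igf1r averaged 4.69 ± 2.62 CPM in small intestine and 4.56 ± 2.37 CPM in colon, and Insr, the insulin receptor, 18.7 ± 7.95 CPM in small intestine and 24.8 ± 5.13 CPM in colon. Per length, Igfbp4 was the highest of the binding proteins in both tissues, at 40.5 RPKM in small intestine and 2.43 RPKM in colon. The next was Igfbp6 in small intestine (1.03 RPKM) and Igfbp7 in colon (1.56 RPKM).

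Of 11 genes related to Fstl1 or named as its partners 9 were tested, none was higher and 2 were lower in small intestine. Both encode receptors of innate immunity. Tlr4, the endotoxin receptor, was 0.0411, 0.0586 and 0.0155 CPM in small intestine and 1.77 to 6.19 CPM in colon (-6.90 ± 0.74, adjusted p = 0.00115 in edgeR). Cd14, its co-receptor, was 18.4, 47.1 and 35.4 CPM in small intestine and 99.6 to 167 CPM in colon (-1.99 ± 0.34, adjusted p = 0.00828 in edgeR). Neither overlapped between the tissues. Sparc averaged 0.946 ± 1.46 CPM in small intestine and 0.167 ± 0.152 CPM in colon and was not called, with 2.63 CPM in small intestine replicate 1, the library with the highest stromal sum.

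Of 9 genes of urea and water transport 8 were tested, 3 were higher and none lower in small intestine, beside 3.74% and 5.02% of all genes tested. Arg2, the mitochondrial arginase that makes urea from arginine, was 677, 27.4 and 78.2 CPM in small intestine and 1.48 to 12.4 CPM in colon (5.36 ± 1.00, adjusted p = 0.0121 in edgeR). The aquaglyceroporins Aqp3 and Aqp7, which pass water, glycerol and urea, were called too (7.06 ± 1.61, adjusted p = 0.0283, and 8.00 ± 1.47, adjusted p = 0.0114 in edgeR). Both were low in 1 small intestine library, Aqp3 with 37.6, 0.410 and 15.0 CPM and Aqp7 with 16.8, 0.195 and 13.8 CPM in replicates 1 to 3, where colon reached 0.450 and 0.239 CPM. Those genes thus overlapped colon in replicate 2, where Slc14a1 was 69.3 CPM. Slc14a2, the other urea transporter of the family, was at 0 in small intestine and at most 0.152 CPM in colon. Leaving out 1 library at a time kept the call in 9 of 9 fits for Tlr4, Cd14 and Aqp7 and in 8 for Stc2 and Arg2, which both missed it without small intestine replicate 1 (adjusted p = 0.0521 and 0.0564 in edgeR, with Arg2 at 3.05). Aqp3 kept it in 4 and missed it without small intestine replicate 1 or 3, colon GFP-high replicate 1 or 3 or colon GFP-negative replicate 1 (adjusted p = 0.0577 to 0.108 in edgeR). Aqp3 and Aqp7 were not called in limma-voom (adjusted p = 0.199 and 0.227). With the replicate number as a block Arg2, Aqp3 and Aqp7 were not called (adjusted p = 0.102 to 0.181 in edgeR). With the tag of the library names as a block none of the called relatives was (adjusted p = 0.137 to 0.487 in edgeR).

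The genes most like each of the 5 were sought among 13534 genes with a mean of at least 1 CPM, by Pearson's r of log2 CPM over the 9 libraries. The libraries fall into the tissues, so r mostly reflects the gap between them and is given as a description. Olfm4 lay closest to a gene with no symbol (r = 0.998) and to the defensins Defa30 (0.996) and Defa24 (0.995). Defa30 was 2256, 1869 and 1238 CPM in small intestine and 0.391 to 1.23 CPM in colon, and counts of defensin copies may be split between near-identical genes. Gkn3 lay closest to Lect2 (0.993), Prss12 (0.992) and Onecut2 (0.988). Prss12, a secreted serine protease, was up to 24.9 CPM in small intestine and at most 0.0465 CPM in colon.

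Igfbp4 lay closest to Krt15 (0.979), a keratin of epithelial progenitors, which was 5.39, 11.3 and 14.6 CPM in small intestine and 0.389 to 1.37 CPM in colon, then to Zfpm1 (0.968) and Dcaf7 (0.967). Fstl1 lay closest to Polr3c (0.995), Sfrp5 (0.988) and Wbscr25 (0.984). Polr3c, a subunit of RNA polymerase III, differed far less between the tissues than Fstl1, at 78.5 to 81.4 CPM in small intestine and 52.3 to 65.0 CPM in colon. Sfrp5, a secreted Wnt antagonist, was 51.5, 139 and 177 CPM in small intestine and 0.0191 to 1.54 CPM in colon, highest in colon GFP-high replicate 3 as Fstl1 was. Slc14a1 lay closest to Rassf5 (0.979), Ap1g2 (0.973) and 4930503L19Rik (0.971). Rassf5, a Ras effector of lymphocytes, was 16.8 to 54.1 CPM in small intestine, 26.9 CPM in colon GFP-negative replicate 3 and 0.708 to 2.86 CPM in the other colon libraries.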

How the data were processed

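Polyadenylated RNA of 9 libraries was analysed from 1 deposited table. Per the submitters' processing notes, the authors used STAR, featureCounts, Subread and edgeR with genome build mm10. The strand setting and the handling of multi-mapping reads were not stated, so genes with near-identical copies or overlaps are uncertain. Per the file headers, the deposited values are raw counts per gene and library, values on a log2 scale (CPM, RPKM, TPM), gene lengths, library totals and TMM factors, each a ratio. The deposited log2 CPM was recomputed from the counts within 5.68e-14 with a prior count of 2. All 9 library names matched a label.

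Counts were tested in R 4.3.3 with edgeR 4.0.16 (TMM, filterByExpr, glmQLFit and glmQLFTest, two-sided, Benjamini-Hochberg over the 20610 genes tested, 57629 not tested), in 1 fit of 9 libraries by group, and the fit was tested on simulated data. A gene was called at an adjusted p under 0.05. The SE given with an edgeR log2 fold change was derived from the test, as its size over the square root of the F statistic. The common biological coefficient of variation was 0.726. CPM are counts over TMM-scaled totals, and floors of 3 counts cover counting error only. The SD is the spread between libraries. Replicate counts differed well beyond sampling noise. Of the gene IDs 51498 (65.8%) were found in GENCODE M21. Promoters came from RefSeq with chromosome 18 left out, so 4 of the 5 genes had one and Slc14a1 was not looked up. Alternatives were limma 3.58.1 (voom), DESeq2 1.42.0, other scalings and filters, blocks and left-out libraries. The genes, lists and tests were chosen with earlier results of these data known. The text names all 5 genes, the 3 genes most like each, any relative, the called and the 4 most abundant uncalled stem cell genes and some genes of the marker lists.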

Additional observations from a re-analysis of the deposited data

Results flagged for a closer look

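Within the 6 colon libraries 3 of the 5 genes had 1 library far above the rest. Its gap to the next library was more than 0.625 of the whole range. Such a gap, counted at either end of the range, arises by chance in about 1 in 20 groups of normal values. Of the 20610 genes tested 14.4% had 1 colon library far above the rest by the same rule. Fstl1 and Slc14a1 passed the filter on low counts only with the small intestine libraries included. For these genes neither rate is a fair yardstick. Olfm4 was 5.145 CPM in colon GFP-negative replicate 1 and at most 2.94 CPM in the other 5 colon libraries. Fstl1 was 0.5398 CPM in colon GFP-high replicate 3, on 58 counts, and at most 0.131 CPM in the others. Slc14a1 was 9.06 CPM in colon GFP-negative replicate 3, on 845 counts, and at most 0.218 CPM in the others. The 3 genes peaked in 3 different libraries. Gkn3 and Igfbp4 had no such library.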

How the results depend on the processing

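The log2 folds of the 5 genes between small intestine and colon stayed positive in the 19 alternatives run, at 11.02 to 11.44 for Olfm4, 10.31 to 13.56 for Gkn3 (13.36 without colon GFP-negative replicate 2), 3.75 to 4.996 for Igfbp4, 5.76 to 8.08 for Fstl1 and 4.36 to 10.72 for Slc14a1 (9.77 without colon GFP-negative replicate 3). Of all genes 1805 were called in small intestine over colon, against 3618 in DESeq2, 1082 without the colon replicate 2 libraries, 1161 against colon GFP-high alone, 1163 against colon GFP-negative alone and 981 to 1758 without 1 library (981, 1009 and 1057 without small intestine replicate 3, small intestine replicate 1 and colon GFP-negative replicate 1). The other stem cell genes called higher numbered 3, with 0 to 9 over the alternatives, and called relatives 3 higher (0 to 4) and 3 lower (0 to 5).

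Between the colon fractions edgeR called 0 genes in each setting, DESeq2 1, or 700 without the colon replicate 2 libraries, and limma-voom 2 without them. For Olfm4 the log2 fold change ran from -0.59 to 0.0842 without 1 library, for Igfbp4 from -0.96 to 0.21 and for Slc14a1 from -6.70 to 0.72. Igfbp4 also turned to 0.25 in limma-voom without the colon replicate 2 libraries. The replicate number as a block left 887 genes called in small intestine over colon, and a block by the tag in the library names left 17, with Igfbp4 at 0.50 and Slc14a1 at 0.48 between the colon fractions. Same-numbered colon libraries did not deviate together (r = -0.0864, -0.604 and -0.246). The deviations are from group means that include the replicate 2 libraries, which went against their labels, so r cannot exclude pairing. Both colon replicate 1 libraries share a name tag with small intestine replicate 2, and both colon replicate 2 libraries share another. Small intestine replicate 3 and colon GFP-high replicate 3 share a further one. The labels do not say what the tags mark. With the replicate block Sp5, Tnfrsf19, Arg2, Aqp3 and Aqp7 were not called (adjusted p = 0.0652 to 0.181 in edgeR), and with the tag block none of the 9 named stem cell genes and relatives was (adjusted p = 0.109 to 0.487 in edgeR). Scaling by totals moved the median of all genes between the colon fractions to 0.13. The fit of the contrast's groups alone could not be changed for small intestine over colon, which uses all groups. The causes of these moves were not tested. The spread between libraries limits the folds, and depth limits Gkn3 and Fstl1 in colon.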

Other observations

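Fabp1, Fabp2, Arg2 and Aqp8 were chosen for this comparison after their values were seen. Fabp1, a fatty acid binding protein of enterocytes, was 12531, 323 and 1688 CPM in replicates 1 to 3, and Fabp2, another fatty acid binding protein, was 771, 42.3 and 181 CPM. Arg2 was 677, 27.4 and 78.2 CPM, and the water channel gene Aqp8 was 30.3, 0.195 and 10.8 CPM. All 4 were highest in replicate 1, where the 5 genes were lowest, and lowest in replicate 2. Olfm4 and Gkn3 were highest in replicate 2, and Igfbp4, Fstl1, Slc14a1 and Lgr5 in replicate 3.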
